A study of Mus musculus with 108 samples.

Results

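The replication-dependent histone genes were taken as all rows of the count table whose symbol starts with Hist1h, Hist2h, Hist3h or Hist4h, which gave 68 of 49585 genes. They comprised 6 linker histone H1 genes and, for the core histones, 20 H2A, 17 H2B, 12 H3 and 13 H4 genes. The Hist1 cluster lies on chromosome 13, the Hist2 cluster on chromosome 3, the Hist3 genes on chromosome 11 and Hist4h4 on chromosome 6 (GRCm38, GENCODE M21). These genes supply the bulk of the histones that package newly made DNA. Their transcripts normally end after a short stem-loop that is bound by SLBP, in place of a poly(A) tail, and are made mainly in S phase, when NPAT activates their promoters. Several of the genes also give polyadenylated transcripts, which are known from differentiated and non-dividing cells, whereas variants such as H2afz and H3f3b are expressed throughout the cell cycle.

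RNA was sequenced from myeloid cells sorted from the brains or blood of Balb/C athymic nude mice (CAnN.Cg-Foxn1nu/Crl), a strain that lacks a normal thymus, so the lung-to-brain metastases studied here grew in hosts without most T cells. The libraries formed 28 groups of 3 to 5. Unirradiated tumour-bearing brains gave microglia and bone-marrow-derived macrophages (BMDM) at a small stage (5 libraries each) and a large stage (5 each), and monocytes and granulocytes at the small stage (4 each) and the large stage (5 each). Each of these 4 populations was also taken after whole-brain radiotherapy (wbrt): 5x2 Gy at day 3 (4 libraries), 1x10 Gy at day 3 (3), 5x2 Gy at day 5 (4) and 5x2 Gy at day 10 (3), with tumour stage not stratified. Mice without a tumour gave untreated microglia (4 libraries) and blood monocytes (4), and 2 further groups of tumour-free microglia (3 libraries each) are titled 5x2, day 3 and day 5, although their radiotherapy field reads none. In these the cell-cycle inhibitor gene Cdkn1a, which is induced by DNA damage, averaged 532 ± 95.0 CPM (counts per 1000000; SD, n = 3) and 793 ± 621 CPM (n = 3), against 61.1 ± 33.9 CPM (n = 4) in the untreated group; whether they were irradiated is not settled by the labels. The labels give neither the age of the mice nor whether replicates are separate animals, so p-values measure only the spread between these samples.

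Library totals ran from 985423 to 18642747 counts, and the histone genes received 45 to 6825 counts per library (median 1984.5). By group means, granulocyte marker genes summed to 20674 to 26101 CPM in the granulocyte groups against at most 1190.4 in any other group, and microglia markers to 11162 to 15331 CPM in microglia against at most 4283 elsewhere. The BMDM list was nearly as high in the monocytes (5594 to 7662 CPM) as in BMDM (6008 to 8318 CPM), so those 2 labels are less well separated by it. The library labelled large-stage BMDM replicate 5 goes against its label: its microglia markers summed to 7907 CPM (1524 to 4610 in the other 4 of its group) and its BMDM markers to 2164 CPM (5259 to 8793). Microglia replicate 4 at 5x2 Gy day 3 had 2066 CPM of BMDM markers against 107 to 182 CPM in the rest of its group. In 12 libraries fewer than 3000000 reads were counted, counts fell on more than 30000 genes, or above 1% of genes abundant in that population had no count. These libraries, called doubtful below, are 3 of the 4 blood monocyte libraries, 2 of the 4 untreated tumour-free microglia, 2 microglia at the small stage, and 1 each of microglia, granulocytes and monocytes at 5x2 Gy day 3, small-stage granulocytes and large-stage BMDM. Olfactory and vomeronasal receptor genes, which these cells should not use, summed to a median of 771 CPM in them against 30.2 CPM in the other 96. A further 18 libraries, 1 of them also doubtful, stood apart by ribosomal protein genes, whose summed level was 1.90 to 3.35 times the median of their population against at most 1.40 times in all others. They are 5 granulocyte libraries, 4 each of tumour microglia, BMDM (large-stage replicate 5 among them) and monocytes, and 1 of blood monocytes; none is in a 1x10 Gy, day 10 or tumour-free microglia group, and the labels name no batch for them.

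The stem-loop sites of the abundant members are shown, and what their annotated transcripts hold after the loop is given below. A histone stem-loop (GG at its 5′ end, CC at its 3′ end, 6 paired bases) was found in the GENCODE M21 transcripts of 44 of the 68 members and of 162 of 55382 other genes (0.293%). In the 9 of the 12 most abundant members that hold it, the 16 bases of the stem-loop are in capitals:
Hist1h1c: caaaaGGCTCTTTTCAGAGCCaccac
Hist1h1e: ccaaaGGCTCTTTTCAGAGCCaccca
Hist1h2bb: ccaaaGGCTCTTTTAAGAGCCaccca
Hist1h2be: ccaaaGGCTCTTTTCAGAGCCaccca
Hist1h2bg: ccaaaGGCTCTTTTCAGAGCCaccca
Hist1h4d: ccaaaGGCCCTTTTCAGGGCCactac
Hist1h4h: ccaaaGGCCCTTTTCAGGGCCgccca
Hist1h4i: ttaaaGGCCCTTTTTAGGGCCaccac
Hist4h4: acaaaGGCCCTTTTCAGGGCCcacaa

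The H1 and H2B genes in this set carry a GGCTC stem and the H4 genes a GGCCC stem. What follows the loop differs far more than the loop. The annotated transcript of Hist1h2bb, an H2B gene, runs on for 23 bases after it, close to the short tail of a classical histone mRNA. That of Hist1h1c, a linker histone gene, runs on for 840 bases, that of Hist1h2be for 1861 and that of Hist4h4 for 2445, and each of these 3 ends with a poly(A) signal. Hist1h2bc, an H2B gene with a spliced transcript, and Hist2h2be, which ends with a poly(A) signal, have no such stem-loop in their annotated transcripts.

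Promoters are shown for 4 members, an H1, a pair of H2B genes that moved in opposite directions, and an H4. The RefSeq table (GRCm38.p6) held a promoter for 59 members; each run is the 120 bases up to the transcription start, 5′ to 3′ on the gene's strand, with searched motifs in capitals:
Hist1h1c: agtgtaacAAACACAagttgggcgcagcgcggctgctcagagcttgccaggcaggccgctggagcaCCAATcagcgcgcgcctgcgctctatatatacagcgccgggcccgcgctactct
Hist1h2bb: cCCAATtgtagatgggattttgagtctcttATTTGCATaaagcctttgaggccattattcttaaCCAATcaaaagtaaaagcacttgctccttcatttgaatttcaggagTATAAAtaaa
Hist1h2bg: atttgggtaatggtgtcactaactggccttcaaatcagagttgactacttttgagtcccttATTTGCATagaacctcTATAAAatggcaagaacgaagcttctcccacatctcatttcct
Hist1h4i: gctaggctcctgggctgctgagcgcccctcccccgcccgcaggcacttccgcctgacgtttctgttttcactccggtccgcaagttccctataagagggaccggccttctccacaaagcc

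These stretches lie at chr13:23738687-23738806 (plus strand), chr13:23746614-23746733 (plus), chr13:23571280-23571399 (plus) and chr13:22041363-22041482 (minus), in that order. Motifs were searched on both strands of the 250 bases before the start. The octamer ATTTGCAT, known as the OCT1 site of H2B promoters, was present in 6 of 14 H2B and 7 of 17 H2A promoters, in no H1, H3 or H4 promoter, and in 1.6% of all 32851 promoters. The sequence AAACACA, the H1 box, was present in 5 of 6 H1 promoters against 6.25% of all. CCAAT occurred in every H1, H2A and H2B promoter searched, in 8 of 10 H3 and 3 of 12 H4 promoters, and in 33.8% of all. TATAAA occurred in 29 of the 59 against 12.4%. Both H2B promoters printed hold the octamer and TATAAA, which are thus shared by a member that was higher and a member that was lower in granulocytes (below).

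A few members held most of the histone signal. Hist1h1c had 81.9 CPM on average over the 28 group means, Hist1h2bc 54.9 and Hist1h2be 18.6, and these 3 carried 68% of the summed level of 228.5 CPM. The 12 most abundant carried 91.5%; the others were Hist1h2al (12.7 CPM), Hist1h4i (10.7), Hist1h1e (6.44), Hist1h4d (5.97), Hist4h4 (5.12), Hist1h2bg (4.76), Hist2h2be (2.80), Hist1h2bb (2.76) and Hist1h4h (2.44). These are counts per gene; per kilobase of exon, Hist1h1c stood at 52.5, Hist1h2bc at 47.5, Hist1h2al at 37.5 and Hist1h4i at 14.8 CPM. The median member reached only 0.166 CPM, 18 members reached 1 CPM, and 6 (Hist2h2aa1, Hist2h2aa2, Hist2h2ab, Hist2h2bb, Hist2h3b and Hist2h3c1) had no count in any library. No H2A member other than Hist1h2al and Hist3h2a (2.23 CPM) reached 1 CPM.

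Most of the summed level came from members whose annotated transcripts have a poly(A) signal in their last 60 bases or an intron. Above all these were Hist1h1c, Hist1h2bc and Hist1h2be. The 18 members whose annotated transcripts have a poly(A) signal or an intron carried 79.9% of the summed level, and 9 of them reached 1 CPM. The 47 with neither carried 14.6%, with a median of 0.116 CPM, and 8 reached 1 CPM. Having neither is a trait of the annotated model and does not show that a poly(A) form is absent. Among them, the Hist1h1e model runs on for 1153 bases after the stem-loop and that of Hist1h4d for 770. The Hist1h4k model has only 312 bases and no stem-loop. Members with neither were also shorter (median 482 against 1358 bases of exon) and less unique (median 35.2% against 70.2% of 50-base windows). Pseudogenes, 3 in number, carried the other 5.57%, nearly all of it in Hist1h2al. RNAs without a poly(A) tail were low throughout: the fixed list of them summed to 6.25 to 24.9 CPM per group, and Rmrp and Rpph1, RNA components of RNase MRP and RNase P that are plentiful in cells, were at or near 0 CPM. The labels state total RNA and do not say whether poly(A) RNA was selected; how far library preparation sets the order of the members was not tested.

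Members of the 13 divergent pairs, whose genes start close together on opposite strands, ranged from very unequal to near equal in level; the 4 pairs given were chosen after their values were seen. Hist1h2ac and Hist1h2bc start 251 bases apart, with 0.300 and 47.5 CPM per kilobase. Hist1h2ae (1.38 CPM per kilobase) and Hist1h2bg (7.71) start 176 bases apart, and there the lower gene is the one with a poly(A) signal. Levels were closer for Hist2h2ac (0.596 CPM per kilobase) and Hist2h2be (1.07), and for Hist1h2bf (0.579) and Hist1h2ad (0.468).

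Sequence likeness limits what single members can show. Under 50% of the 50-base windows were unique in 36 of the 68 members: 16 of 20 H2A, 8 of 17 H2B, 8 of 12 H3, 4 of 13 H4 and no H1. All 20 H2A genes also overlap a gene model on the other strand, and the counting is not stated to use strand, so H2A values are uncertain. Unique shares of the leading members were 91.5% for Hist1h1c, 69.4% for Hist1h2bc, 83.7% for Hist1h2be, 71.1% for Hist1h4i and 89.8% for Hist1h4d. Hist1h2al is annotated as a processed pseudogene with 32.4% unique windows, and the gene model of Hist1h2be overlaps Hist1h1e on the same strand, so reads of these members may belong to their copies or neighbours. Hist1h2bc shares 50-base windows with 220 other genes, so some of its reads may belong elsewhere too.

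On the TMM scale used throughout, granulocytes had the highest summed histone level. Their 23 libraries had a lowest, median and highest level of 368, 488 and 725 CPM, and no library of another population reached their lowest. Microglia of tumour-bearing brains followed at 126, 194 and 291 CPM (24 libraries) beside tumour-free microglia at 147, 215 and 319 CPM (10 libraries), and these ranges overlapped almost wholly. BMDM had 71.3, 114 and 238 CPM (24 libraries; the highest is the library labelled large-stage replicate 5, without which it is 208 CPM), monocytes 41.3, 81.9 and 190 CPM (23) and blood monocytes 44.5, 96.4 and 121 CPM (4), again with wide overlap. In sorted bulk RNA a higher share of cells with a transcript and more of it per cell cannot be told apart. The values are CPM scaled with TMM factors over all libraries; by library totals alone the order changed. Small-stage granulocytes then averaged 316 CPM and those at 5x2 Gy day 10 averaged 303 CPM, below untreated tumour-free microglia (329 CPM) and those titled day 5 (326 CPM), while the other 4 granulocyte groups had 355 to 427 CPM.

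**Figure D1:**
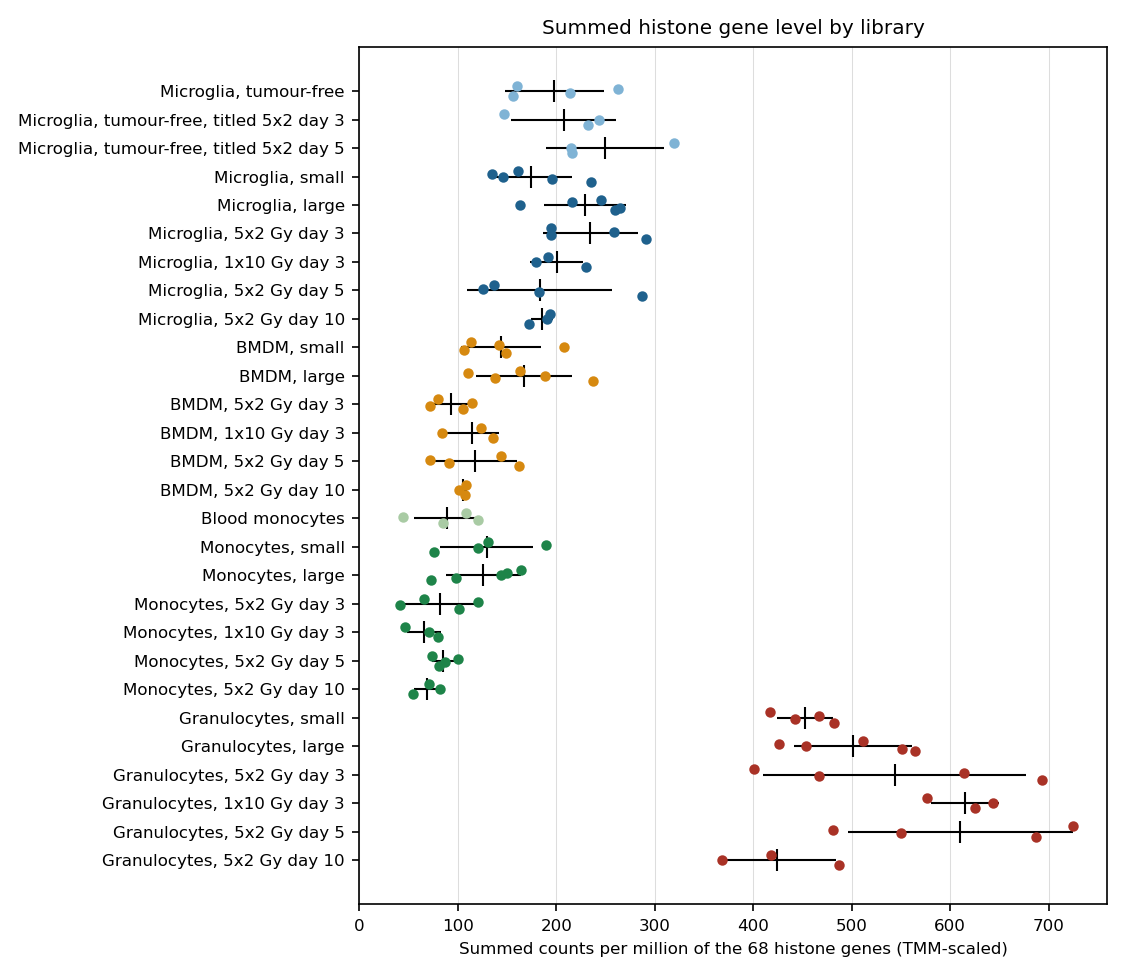
Summed level of the 68 histone genes in each library (points, CPM) for the 28 groups, with the group mean (vertical mark) and SD (bar), coloured by population. On this TMM scale granulocyte libraries lie between 368 and 725 CPM, above every library of the other populations; by library totals the order of the group means changes.

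The makeup of the sum also differed. H2B genes supplied a median of 45.9% of the level in granulocytes, 35.0% in tumour microglia, 34.2% in tumour-free microglia, 25.9% in BMDM, 24.1% in blood monocytes and 19.2% in monocytes. H1 genes, mainly Hist1h1c, supplied 53.6% in monocytes and 51.5% in BMDM against 33.9% in granulocytes. Among the other linker histones, Hist1h1e reached a median of 16.7 CPM in tumour-free microglia and 3.30 to 8.68 CPM in the other populations. Hist1h1b had medians of 0.473 CPM in blood monocytes, 0.373 CPM in tumour microglia and 0.343 CPM in BMDM, and 0 in granulocytes, where 13 of 23 libraries had no count. Hist1h1a stayed at a median of at most 0.355 CPM, and the testis linker histone Hist1h1t was at 0 in 21 of 23 granulocyte and 22 of 24 BMDM libraries. Hist4h4, the only member on chromosome 6, had medians of 9.55 CPM in tumour-free and 7.75 CPM in tumour microglia and 2.69 to 3.70 CPM elsewhere. Hist3h2a was highest in tumour microglia (median 3.16 CPM) and lowest in granulocytes (0.832 CPM), with overlapping ranges.

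**Figure D2:**
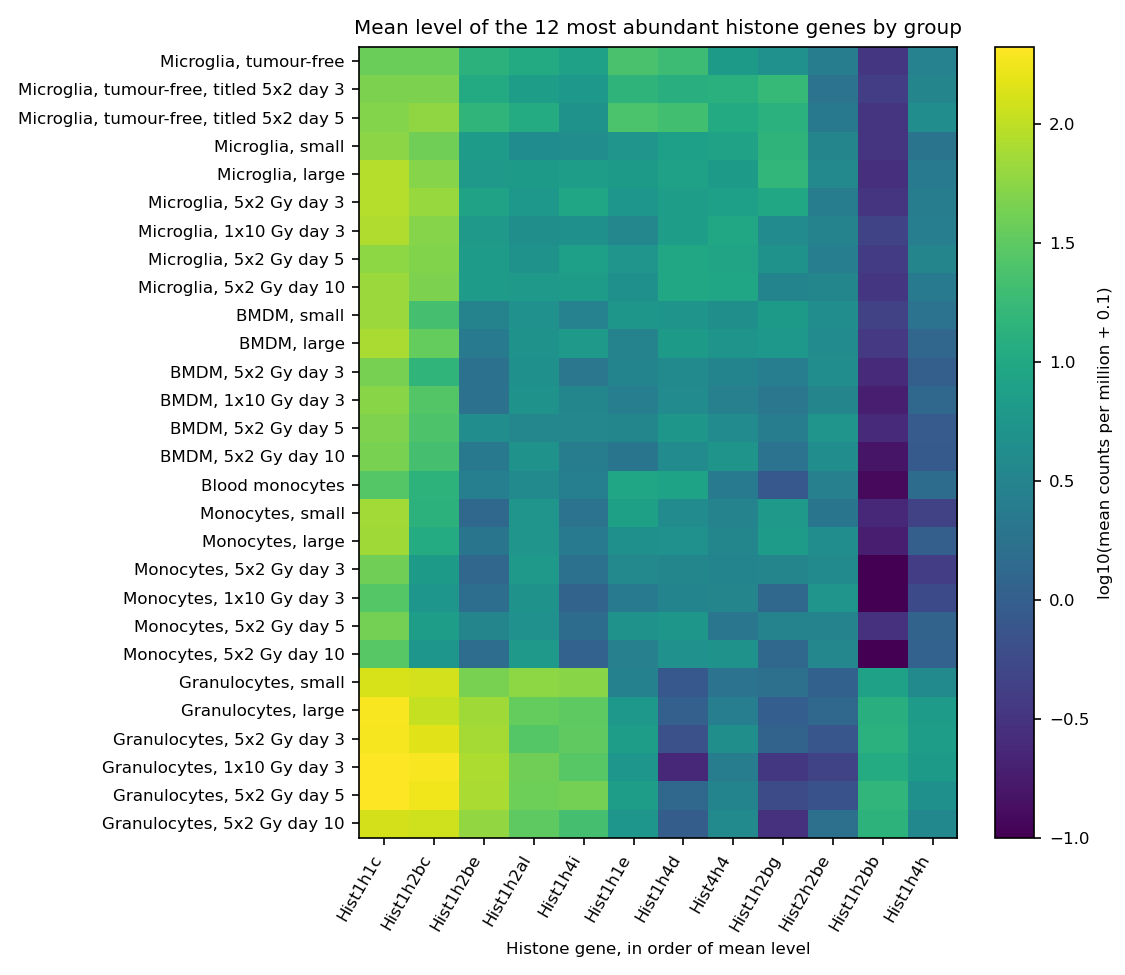
Mean level of the 12 most abundant histone genes (columns) in the 28 groups (rows) as log10(mean CPM + 0.1), per gene and not per length. Hist1h2bb is bright only in the 6 granulocyte groups, whereas Hist1h4d is darker there. Hist1h2bg is dark in the granulocyte groups too, but not only there: its mean in blood monocytes lies below that in small-stage granulocytes.

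Histone level did not follow the genes of DNA replication and mitosis across populations. The 20 mitosis genes, among them the proliferation marker Mki67, summed to a median of 328 CPM in tumour microglia, 192 in blood monocytes, 152 in BMDM, 64.9 in granulocytes, 51.1 in monocytes and 33.4 in tumour-free microglia. The 35 DNA replication genes summed to a median of 903 CPM in tumour microglia and 318 CPM in granulocytes, the lowest of all populations. On the TMM scale granulocytes thus had the highest histone level with the lowest replication level, although by library totals 2 granulocyte groups fell below tumour-free microglia in histone level. Tumour-free microglia had a histone level like that of tumour microglia with a far lower mitosis level.

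**Figure D3:**
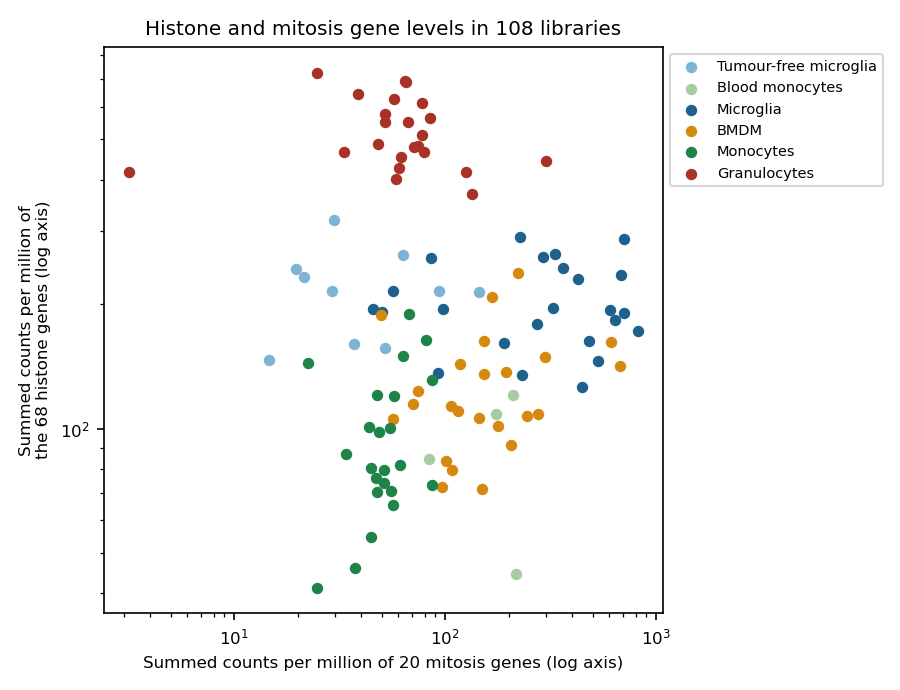
Summed histone level against the summed level of 20 mitosis genes (CPM, log axes), with 1 point per library coloured by population. On the TMM scale, granulocyte points sit above all others on the histone axis across a wide span of mitosis levels (3.19 to 301 CPM).

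Granulocytes, whose mature form is short-lived and has left the cell cycle, were compared with monocytes, another blood-derived cell, from the same unirradiated tumours. The share of mature cells among the sorted granulocytes was not measured here. Of 18 histone genes tested, 11 were higher and 2 lower in granulocytes (edgeR quasi-likelihood test, Benjamini-Hochberg adjusted p under 0.05 over all genes tested). Of all genes, 49.9% were called, 23% higher and 26.9% lower. The members' median log2 change was 2.15 against −0.13 over all genes. The other 50 members did not pass the filter on low counts, and a member can pass it through granulocytes alone: Hist1h2bb had at most 4 counts and Hist1h2bl at most 2 in any of the 9 monocyte libraries. Counts and medians over tested members, here and in the later comparisons, are therefore descriptions of those that passed. Calls fell on every type: 4 of 6 H2B and 4 of 6 H4 genes were higher, as were 1 of 2 tested genes each of H1, H2A and H3, and the 2 lower genes were an H2B and an H4.

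Hist1h2bc, the most abundant H2B gene, read 148, 84.0, 104 and 164 CPM in the small-stage and 109, 49.5, 96.6, 141 and 140 CPM in the large-stage granulocytes. In monocytes it read 9.74, 17.6, 8.42 and 18.6 CPM at the small stage and 18, 16.8, 10.3, 5.82 and 3.49 CPM at the large stage. Every granulocyte library lay above every monocyte library. The log2 change was 3.50 ± 0.40 (SE), with an edgeR adjusted p of 3.16e-07. The H4 gene Hist1h4i, with 115, 27.1, 20.1 and 55.2 CPM at the small and 23.8, 23.6, 18.8, 32.7 and 57.0 CPM at the large stage, did not overlap the monocytes either, which had 0.668 to 5.21 CPM. Its log2 change was 4.61 ± 0.53 (edgeR adjusted p = 3.50e-07). In granulocytes and tumour microglia Hist1h4i was higher in the libraries high for ribosomal protein genes. Across all granulocytes it had 55.2 to 115 CPM in the 5 libraries high for these and 13.7 to 40.2 CPM in the other 18, and in tumour microglia 8.90 to 21.9 CPM in 4 and 1.26 to 6.91 CPM in 20. Elsewhere the split was less clean. Small-stage BMDM replicate 4, a high library, had 4.17 CPM, below large-stage replicate 4 (4.58 CPM), which was not high. Untreated tumour-free microglia replicates 3 and 4, also not high, had 15.9 and 9.92 CPM. Without the libraries high for ribosomal protein genes the log2 change of Hist1h4i against monocytes was 4.05 (edgeR adjusted p = 9.08e-06).

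Hist1h2bb was at or near 0 outside the granulocytes. It read 0, 11.1, 8.67 and 11.7 CPM in small-stage and 11.6, 7.44, 14.3, 10.5 and 16.8 CPM in large-stage granulocytes. The library at 0 is the doubtful one, whose depth allows up to 1.59 CPM (3 counts). Monocytes had 0 to 0.364 CPM. The log2 change was 6.60 ± 0.83 (edgeR adjusted p = 1.38e-06). Across all 23 granulocyte libraries the median was 12 CPM, and in each other population it was at most 0.17 CPM.

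Hist1h2be is an H2B gene with a long annotated transcript that ends with a poly(A) signal. It had a lowest, median and highest level of 1.06, 68.4 and 110 CPM in granulocytes against 0, 1.75 and 3.13 CPM in monocytes. The log2 change was 5.46 ± 0.76 (edgeR adjusted p = 5.38e-06). Hist1h2al, with 22.6, 33.3 and 147 CPM against 3.90, 5.03 and 7.48 CPM, did not overlap (3.31 ± 0.42, adjusted p = 1.46e-06). Hist1h4h was higher by 3.36 ± 0.70 on the log2 scale. Hist1h1c, the main linker histone, had 2.66, 193 and 246 CPM against 17.9, 72.2 and 138 CPM, and its log2 change of 1.45 ± 0.50 had an edgeR adjusted p of 0.0195. The doubtful library at 2.66 CPM lay below all monocytes, and 1 further library, at 103 CPM, lay within their range. Without small-stage granulocyte replicate 2 its adjusted p was 0.0606. The remaining higher members, named after their values were seen, were Hist1h2bl (log2 6.16), Hist1h3f (3.14), Hist2h4 (2.40) and Hist1h4n (1.90). Hist1h4n was also not called without small-stage granulocyte replicate 2 or small-stage monocyte replicate 1 (edgeR adjusted p up to 0.197), or with no filter (0.118). With the replicate number as a block, Hist1h1c (edgeR adjusted p = 0.0739), Hist2h4 (0.0578) and Hist1h4n (0.177) were not called. Only 17.2% of the 50-base windows of Hist1h2bl and 14.4% of those of Hist1h4n were unique.

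**Figure D4:**
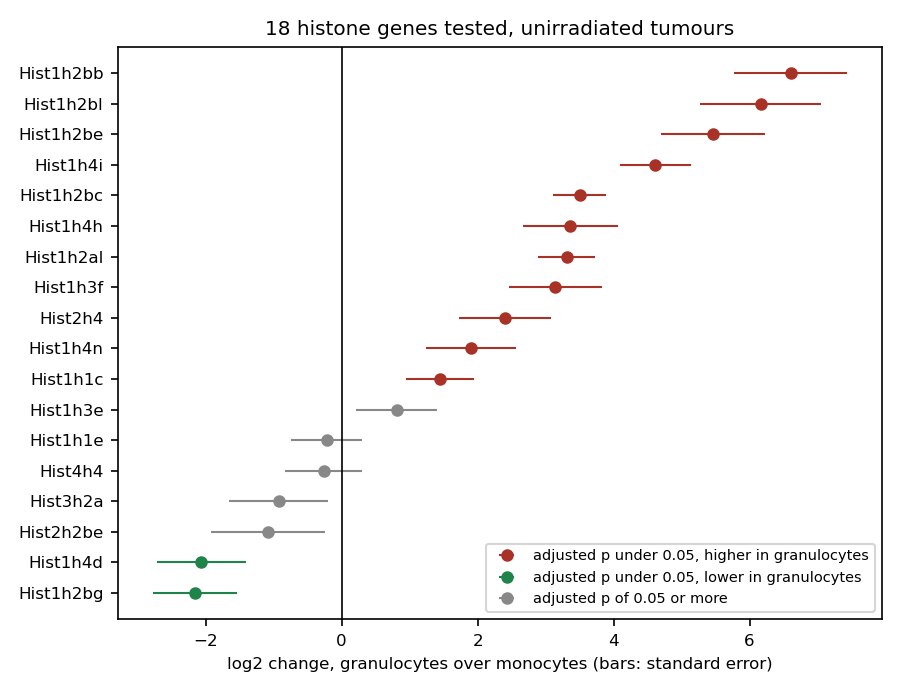
Log2 change with SE of the 18 tested histone genes in granulocytes against monocytes of unirradiated tumours. Red marks the 11 higher genes, green the 2 lower genes and grey the others; Hist1h2bb (6.60) is the highest and Hist1h2bg (−2.16) the lowest.

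Some members went the other way. Hist1h2bg, whose promoter is printed above with the same octamer as that of Hist1h2bb, was lower in granulocytes: 0.125, 0.817 and 4.33 CPM against 1.11, 8.01 and 10.3 CPM, a log2 change of −2.16 ± 0.62 (edgeR adjusted p = 0.00616). Hist1h4d, an H4 gene, had 0, 0.709 and 2.29 CPM against 1.72, 3.53 and 9.97 CPM (−2.07 ± 0.66, adjusted p = 0.0119). Hist1h1e (log2 −0.22), Hist4h4 (−0.27), Hist2h2be (−1.09), Hist3h2a (−0.93) and Hist1h3e (0.81) did not pass. By transcript form, the 11 higher members were 6 of 9 tested with a poly(A) signal or intron, 4 of 8 with neither and the pseudogene, and both lower members had neither. Without the doubtful small-stage library, and likewise without the libraries high for ribosomal protein genes, the counts were again 11 higher and 2 lower.

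Other genes of histone supply were called in both directions. Of 9 tested replication-independent variants, 2 were higher and 4 lower: H3f3a rose by 0.94 and H3f3b by 0.68 on the log2 scale, whereas H2afz fell by 1.37 and the linker variant H1f0 fell by 3.69. Of 15 genes of histone transcription and 3′ processing, 1 was higher, the stem-loop binding protein gene Slbp (0.99, edgeR adjusted p = 0.0121), and 5 were lower. Histone chaperone genes gave 2 higher and 4 lower of 12. DNA replication genes gave 2 higher and 10 lower of 33, with a median of −0.83, and mitosis genes 1 higher (Mki67, 1.53) and 2 lower of 18. Markers of immature granulocytes, 3 of 4 tested of which were higher, summed to 216 to 3807 CPM in the granulocyte groups against 15.6 to 52.8 CPM in the monocyte groups; their part in the histone difference was not tested.

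Microglia were compared between tumour-bearing and untreated tumour-free brains, the question being what the tumour changes in the resident macrophages of the brain. At the large stage 1 of 30 tested histone genes was higher and 5 lower, where 31.9% of all genes were called (11.7% higher, 20.2% lower); the members' median log2 change was −0.75 against −0.26 over all genes. At the small stage none was higher and 4 were lower, where 15.4% of all genes were called (7.55% higher, 7.82% lower), with medians of −0.69 and −0.03. The 2 comparisons share the tumour-free libraries.

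Hist1h1c was the member that rose at the large stage. It read 35.2, 46.3, 44.3 and 26.3 CPM in untreated tumour-free microglia, 30.9, 60.7 and 47.6 CPM in those titled 5x2 day 3 and 60.2, 42.9 and 50.5 CPM in those titled day 5. The large stage had 89.7, 98.7, 77.3, 103 and 83.3 CPM, all above every tumour-free library, and the small stage 45.0, 45.2, 32.9, 69.1 and 85.0 CPM, which overlapped them. The log2 change at the large stage was 1.05 ± 0.27 (edgeR adjusted p = 0.0048), and without the doubtful libraries it was 1.53 (adjusted p = 0.00169).

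Hist1h1e, another linker histone gene, went the other way. It read 12.6, 40.6, 31.8 and 8.72 CPM in untreated tumour-free microglia, of which replicates 2 and 3 are doubtful, and 10.6, 18.3, 14.3, 39.0, 18.9 and 15.0 CPM in the titled groups. Tumour microglia had 2.10, 5.05, 1.74, 6.36 and 11 CPM at the small stage and 7.61, 6.66, 4.32, 8.42 and 4.59 CPM at the large stage; only the highest small-stage library overlapped the tumour-free range. The log2 changes were −2.29 ± 0.47 (edgeR adjusted p = 0.00108) and −2.14 ± 0.46 (adjusted p = 0.00130).

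Hist1h2be and Hist1h4d fell at both stages. Hist1h2be had 8.96, 15.6, 15.9 and 13.9 CPM in untreated tumour-free microglia, of which replicates 2 and 3 are doubtful. It had 6.06 to 7.41 CPM at the small and 3.51 to 8.32 CPM at the large stage, with no overlap with these untreated libraries. The lowest tumour-free library titled 5x2 had 7.97 CPM, within the large-stage range. Its log2 changes were −1.08 ± 0.31 (edgeR adjusted p = 0.0159) and −1.37 ± 0.31 (adjusted p = 0.00179). Hist1h4d had 14.2, 16.1, 31.2 and 14.1 CPM in the untreated libraries against 5.12 to 8.90 and 4.02 to 11.2 CPM, also with no overlap (−1.41 ± 0.33, adjusted p = 0.00391, and −1.44 ± 0.33, adjusted p = 0.00213). For Hist1h4d too the lowest titled library, at 10.2 CPM, lay within the large-stage range. Hist1h2al passed at the small stage (−1.50), and Hist1h4a (−2.58) and Hist1h1d (−1.69) at the large stage.

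Without the tumour libraries high for ribosomal protein genes 4 members were lower at each stage, Hist1h1d at the large stage not being called (adjusted p = 0.0553). The lower calls rest more on the tumour-free libraries used. Without the doubtful libraries no member was called at the small stage, and at the large stage 1 was higher (Hist1h1c) and 1 lower (Hist2h4, −1.57, named after its value was seen); Hist1h1e then changed by −0.87 and −0.77, with edgeR adjusted p of 0.317 and 0.251. With the 6 tumour-free libraries titled 5x2 as the reference instead, Hist1h1e (−1.73 and −1.58), Hist1h2be (−0.79 and −1.08) and Hist1h4d (−0.99 and −1.02) were lower at the small and the large stage. These 6 libraries may be no plain tumour-free reference, since their mean Cdkn1a level was above that of the untreated group. Cdkn1a was also higher in unirradiated tumour microglia than in the untreated group. Whether the 6 tumour-free libraries were irradiated was not tested. With the titled libraries as the reference Hist1h1b, a linker histone gene of dividing cells, was higher at both stages (2.96 and 2.93, with edgeR adjusted p of 0.0383 and 0.0449). Single libraries ended some calls: Hist1h2al at the small stage was not called without untreated replicate 2 or 3 or small-stage replicate 2 or 3, Hist1h4a at the large stage without untreated replicate 2 or 3, and Hist1h1d without untreated replicate 2 or large-stage replicate 1, 2 or 5.

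**Figure D5:**
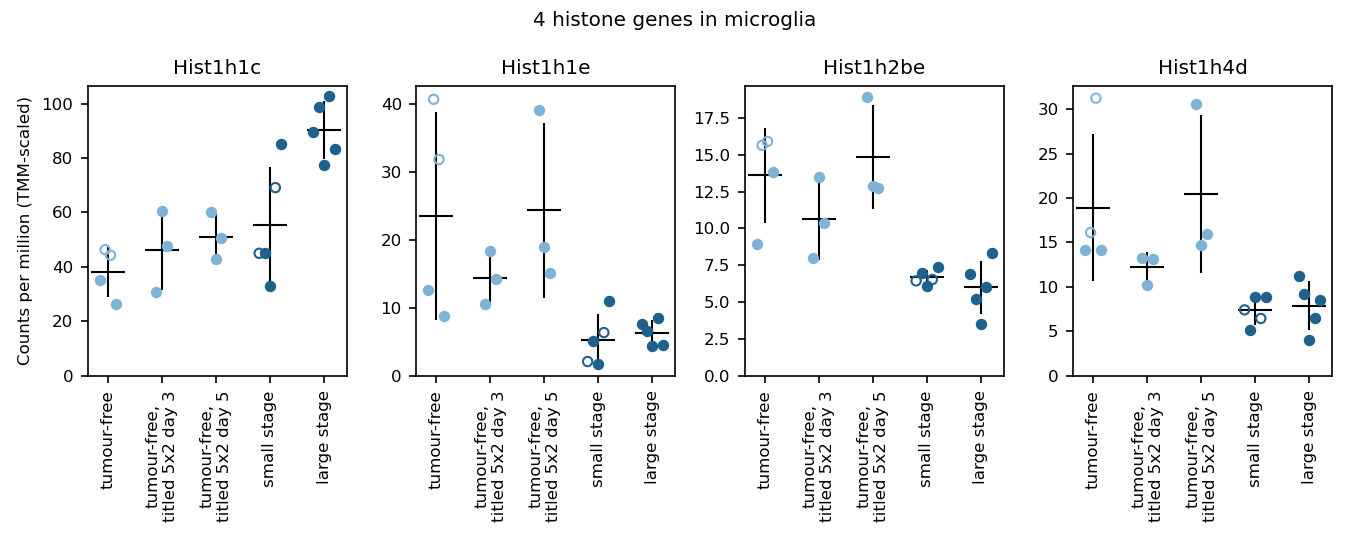
Levels (CPM) of Hist1h1c, Hist1h1e, Hist1h2be and Hist1h4d in each library of tumour-free and unirradiated tumour microglia, with mean and SD; open circles are doubtful libraries. Large-stage Hist1h1c (77.3 to 103 CPM) lies above all tumour-free libraries, and the other 3 genes have lower means in tumour microglia.

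Other genes of the cell cycle moved differently in the same libraries. DNA replication genes gave 14 higher and none lower of 35 at both stages, and mitosis genes 14 and 13 higher, none lower, of 20. Rrm2, a subunit of ribonucleotide reductase, rose by 3.68 and 3.49 on the log2 scale, the DNA topoisomerase gene Top2a by 3.22 and 2.53, the replicative helicase gene Mcm2 by 1.84 and 1.75 and Slbp by 0.88 and 0.94. Cdkn1a, the cell-cycle inhibitor p21, rose too (2.47 and 2.63). Astrocyte markers, 5 of 7 lower at both stages, summed to 1205 to 1933 CPM in tumour-free against 207 to 341 CPM in tumour-bearing microglia groups; their part in the lower histone calls was not tested.

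Recruited and resident macrophages of unirradiated tumours were compared next. Of 25 histone genes tested, none was higher and 6 were lower in BMDM than in microglia, where 29.9% of all genes were called (16.1% higher, 13.8% lower), with a member median of −0.51 against −0.04. Hist1h2bc had 11.8, 23.4 and 80.7 CPM in BMDM against 31.5, 40.8 and 76.5 CPM (lowest, median, highest of 10 libraries each), a log2 change of −0.78 ± 0.25 (edgeR adjusted p = 0.0221). The highest BMDM library is the one labelled large-stage replicate 5, and without it the highest was 30.1 CPM and the log2 change −1.06 (adjusted p = 0.00043). Hist1h2be had 0, 2.73 and 4.21 CPM against 3.51, 6.49 and 8.32 CPM (−1.31 ± 0.44, adjusted p = 0.0298), and Hist1h2bg 1.63, 5.11 and 15.3 CPM against 1.81, 18.9 and 27.3 CPM (−1.35 ± 0.50, adjusted p = 0.0486). The H3 genes Hist1h3e (−1.26) and Hist1h3d (−1.52) also passed, as did the low H2A gene Hist1h2ad (−3.36), named after its value was seen. Without the library labelled large-stage BMDM replicate 5, 5 members were lower, Hist1h2bg not being called (−1.29, adjusted p = 0.0706). The Hist1h2bg call was lost in 14 of the 20 runs that left out 1 library. With the replicate number as a block, Hist1h2bg (edgeR adjusted p = 0.138) and Hist1h2be (0.0516) were not called. Without the 4 libraries high for ribosomal protein genes, 4 were lower and Hist1h2be (−1.45, adjusted p = 0.0521) and Hist1h3d (−1.56, adjusted p = 0.0630) were not called. Without the doubtful libraries Hist1h2ad alone was called, and leaving out large-stage BMDM replicate 4 or large-stage microglia replicate 1 or 5 left 3 calls. Replication-independent variants moved the other way, with 7 of 10 higher in BMDM and none lower: H2afz rose by 1.30, H3f3a by 0.88 and H1f0 by 0.88.

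Few of these genes were called between tumour monocytes and BMDM or blood monocytes. Between BMDM and monocytes of unirradiated tumours 1 of 19 tested members was higher and none lower (13.8% of all genes called), Hist1h2bc, with 11.8, 23.4 and 80.7 CPM against 3.49, 10.3 and 18.6 CPM (log2 1.19 ± 0.35, edgeR adjusted p = 0.0271). That call was lost without the library labelled large-stage BMDM replicate 5, whose markers go against its label (log2 0.92, adjusted p = 0.0605), and without the libraries high for ribosomal protein genes (0.84, adjusted p = 0.0889). It was also lost without small-stage BMDM replicate 3, or small-stage monocyte replicate 1 or 3 (adjusted p up to 0.0712), and with the replicate number as a block (1.13, adjusted p = 0.103), where 7 of 9 same-numbered pairs were correlated above 0.1. In the same comparison 10 of 35 DNA replication and 11 of 20 mitosis genes were higher and none lower. Between tumour and blood monocytes 1 of 17 was higher and none lower (26.3% of all genes called): Hist1h2bg, with 8.01, 6.26, 8.84 and 1.11 CPM at the small and 9.21, 9.85, 10.3, 1.91 and 1.67 CPM at the large stage against 1.2, 0.196, 1.15 and 0.403 CPM in blood (2.72 ± 0.84, adjusted p = 0.0276). It was not called without blood replicate 2 (adjusted p = 0.0803). Without the doubtful libraries only 1 blood library is left, whose spread is then assumed to be that of the other groups, so that fit (3.95, adjusted p = 0.305) says nothing about stability. Without the libraries high for ribosomal protein genes Hist1h2bg was higher by 2.97 (adjusted p = 0.00538), Hist1h1c was called higher too (1.61) and Hist1h1d (−2.57) and Hist1h4d (−1.53) lower. The blood libraries also held erythroid transcripts, at 3973 ± 2589 CPM (SD, n = 4), and their part in this result was not tested.

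Stage gave no called member in any of the 4 populations. In 18 to 30 members tested per population, edgeR called none between the large and the small stage, where 0%, 0%, 0% and 0.0141% of all genes were called in microglia, BMDM, monocytes and granulocytes. At an unadjusted p under 0.05, 3 of 92 member tests were higher and 2 lower, where 1.86% and 6.25% of the tests of all genes were. DESeq2 called 2 members lower, both in granulocytes, where it called 10.5% of all genes lower.

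Radiotherapy also gave no called member in any of the 16 comparisons with the unirradiated groups, with 18 to 30 members tested in each. Of all genes, 0.0607% (5x2 Gy day 3), 0.101% (1x10 Gy day 3), 0.0354% (5x2 Gy day 5) and 0.00506% (5x2 Gy day 10) were called in microglia, 0.0063% in BMDM after 1x10 Gy, and 0% in the other 11 comparisons. At an unadjusted p under 0.05, 5 of 368 member tests were higher and 37 lower (11.4% together), where 2.26% of the tests of all genes were higher and 3.41% lower. DESeq2 called 1 member lower, in monocytes at 5x2 Gy day 5, where it called 0.825% of all genes lower. Without the libraries high for ribosomal protein genes edgeR again called no member; 6 of 352 member tests were then higher and 50 lower at an unadjusted p under 0.05, against 3.5% and 4.33% of all. Since all comparisons within a population share its unirradiated libraries, these lower values are not independent of each other.

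Of those lower values, 9 were of Hist1h2bg and 5 of Hist1h1c. Hist1h1c averaged 73.7 ± 28.4 CPM (SD, n = 10; 72.1 ± 29.7 without the library labelled large-stage replicate 5) in unirradiated BMDM and 44.1 ± 11.8, 53.3 ± 13.4, 47.4 ± 18.1 and 45.3 ± 4.49 CPM after 5x2 Gy day 3, 1x10 Gy day 3, 5x2 Gy day 5 and 5x2 Gy day 10. In monocytes it averaged 72.1 ± 37.0 CPM (SD, n = 9) without and 39.5 ± 22.1, 27.8 ± 11.7, 42.4 ± 15.6 and 28.9 ± 11.4 CPM with radiotherapy, in the same order. All 8 irradiated means were below the unirradiated mean, with log2 changes from −0.51 to −1.42, but the libraries overlapped and the smallest edgeR adjusted p was 0.530. In microglia (72.9 ± 24.2 CPM, n = 10, without radiotherapy) the means were 88.8, 85.3, 57.7 and 65.8 CPM, and in granulocytes (168 ± 76.8 CPM, n = 9) 189.6, 211, 206 and 130 CPM, above and below the reference.

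Hist1h2bg, which had means of 9.71 ± 7.63, 3.87 ± 1.11, 4.78 ± 1.97 and 3.03 ± 1.02 CPM in irradiated microglia, was below its unirradiated level in all 12 comparisons of microglia, BMDM and monocytes, with log2 changes from −0.64 to −2.44. In 9 of these the unadjusted p was under 0.05, and the smallest edgeR adjusted p was 0.520. Unirradiated tumour microglia ranged from 1.81 to 27.3 CPM, a span that holds every irradiated microglia library. Irradiated and unirradiated libraries also overlapped in BMDM and in monocytes. For comparison, Cdkn1a, a target of the DNA damage response, was higher in microglia at 5x2 Gy day 3 (1.69), 1x10 Gy day 3 (1.72) and 5x2 Gy day 5 (1.44).

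Whether the change at day 3 differed between BMDM and microglia was tested as an interaction. None of 29 members was called for 5x2 Gy (0.00529% of all genes called) or for 1x10 Gy (0%); at an unadjusted p under 0.05, 6 of 58 tests were lower in BMDM and none higher, where 2.89% of the tests of all genes were lower and 1.04% higher, and DESeq2 called no member (0.00965% of all genes). The Cdkn1a response to 5x2 Gy was smaller in BMDM (−1.64, edgeR adjusted p = 0.0476).

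Among 10694 other genes with a mean of at least 5 CPM, the 3 whose group means most resembled the summed histone level in rank order were Cd37 (Spearman rho 0.947), St3gal6 (0.946) and Hnmt (0.945), over 28 groups. The groups share populations, and the granulocytes lie at the top of the histone order, so a gene that separates these populations scores highly; the values are a description only.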

How the data were processed

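Sorted myeloid cells were profiled by RNA sequencing (total RNA; Illumina libraries, per the labels' protocols). The authors deposited whole-number counts per gene; per the submitters' processing notes the build was GRCm38 and the tools were TopHat2 2.0.14 and HTSeq, beside FastQC and DESeq2 1.18.1. Not given in the sources used here were strand use, read length, poly(A) selection and the handling of multiply mapped reads. Reads mapped to several places may have been dropped or split, which bears on near-identical histone copies.

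Groups followed the sample titles and characteristics. Counts were tested with edgeR 4.0.16 (R 4.3.3; limma 3.58.1): filterByExpr, TMM factors, quasi-likelihood F-test with 1 mean per group and no covariates, Benjamini-Hochberg over all genes tested, threshold 0.05. Irradiated groups were set against the mean of the small and large groups. Levels are CPM with TMM factors over all libraries, whereas log2 changes use each fit's own factors, so the 2 need not match exactly. Depth was 985423 to 18642747 counts (median 11362593.5); a count of 0 was read as up to 3 counts, and limits of this kind cover counting error only. Alternatives were RLE factors, no filter, DESeq2 1.42.0, a replicate block, leaving out each library and, chosen after seeing the data, leaving out doubtful libraries (abundant genes there are those with a median of 50 CPM or more in the population), leaving out libraries whose summed ribosomal protein gene level was above 1.5 times the median of their population, and another tumour-free reference. Replicate numbers were not used as pairs in the main fits: in no comparison were all same-numbered pairs correlated above 0.1. That rule cannot exclude pairing. In BMDM against monocytes 7 of 9 pairs were above 0.1 (median r 0.395), and in granulocytes against monocytes 6 of 9 were. Counts with the replicate block are given below.

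The fitting code was tested on simulated counts. A first simulation, with less abundant genes and smaller changes, missed its limits for recovered and false calls; its gene levels, fold sizes and limits were then changed to more abundant genes and larger changes, and the code, unaltered, passed. The pass therefore covers only abundant genes and large changes, under limits set after the first result was known. In the first simulation the limit for false calls was missed in granulocytes against monocytes. Modest changes in members of low level may go uncalled, and false calls may be more frequent than the threshold states.

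Members and gene lists were chosen with earlier results of these data known. Named genes were the 12 members of highest mean, up to 4 called members per direction and comparison with the smallest adjusted p and at least 1 CPM, all H1, Hist3 and Hist4 members, a fixed set of cell-cycle and variant genes, up to 3 called genes of each list, and the 3 most alike genes. Stem-loops and overlaps came from GENCODE M21, promoters from RefSeq. Python 3.11.15, pandas 2.3.3, numpy 2.4.6 and matplotlib 3.10.9 were used.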

Additional observations from a re-analysis of the deposited data

Results flagged for a closer look

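In groups of 4 or 5 libraries, a library was singled out where its gap to its nearest neighbour was large against the range of its group (Dixon's test at 95%). This was so in 33 of 323 group tests of the members and type sums (10.2%). A chance rate of about 1 in 20 would hold for independent, normally distributed values. The type sums contain the members, and some low values rest on very few counts. The share of 10.2% can therefore not be compared with that rate, and no excess over chance is read from it.

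Among granulocytes, small-stage replicate 1, a doubtful library, had 146.7 CPM of Hist1h2al and so an H2A sum of 148.9 CPM, far above its group. Replicate 1 at 5x2 Gy day 5 stood out for Hist1h1c (335 CPM) and the H1 sum (337.5 CPM). At 5x2 Gy day 3, replicate 4 had 128.4 CPM of Hist1h2be and the doubtful replicate 3 had 11.8 CPM of Hist1h4h. Small-stage replicate 3 had 3.57 CPM of Hist2h2be.

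Large-stage BMDM gave the most such values. The library labelled replicate 5, whose markers go against its label (7907 CPM of microglia and 2164 CPM of BMDM markers), was high for Hist1h2bc (80.7 CPM), Hist1h4i (19.8 CPM) and Hist1h4h (2.84 CPM), and replicate 3 stood apart for Hist1h2al (2.80 CPM) and Hist4h4 (10.9 CPM). The doubtful replicate 2 had 1.51 CPM of Hist1h1e and replicate 1 had 0.943 CPM of Hist1h2bb. In small-stage BMDM, replicate 5 had 1.31 CPM of Hist1h2bb. After radiotherapy, replicate 1 at 5x2 Gy day 5 had 74.3 CPM of Hist1h1c, replicate 4 had 9.57 CPM of Hist1h4i and 4.49 CPM of Hist1h2bg, and replicate 3 at 5x2 Gy day 3 had 1.99 CPM of Hist1h4h.

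In microglia, Hist1h4i stood out in large-stage replicate 5 (21.5 CPM) and in replicate 4 at 5x2 Gy day 3 (21.9 CPM). Hist1h2al stood out in small-stage replicate 5 (6.34 CPM) and in replicate 4 at 5x2 Gy day 5 (11.5 CPM), where replicate 3 had 13.7 CPM of Hist4h4. Hist2h2be had 4.92 CPM in large-stage replicate 3 and 0.899 CPM in small-stage replicate 2. Hist1h2bb had 0.675 CPM in replicate 2 at 5x2 Gy day 3, and Hist1h4d had 31.2 CPM in the doubtful replicate 3 of untreated tumour-free microglia.

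Among monocytes, small-stage replicate 3 had an H2B sum of 21.2 CPM, and at 5x2 Gy day 5 replicate 4 had 0.707 CPM of Hist1h2bb and replicate 3 had 1.88 CPM of Hist1h4h. In blood monocytes, the doubtful replicate 2 had 0.980 CPM of Hist1h2al and replicate 4 had 0.0806 CPM of Hist1h2bb.

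The 4 libraries of microglia and BMDM singled out for Hist1h4i were also high for ribosomal protein genes, at 7429 CPM (large-stage microglia replicate 5), 7931 CPM (microglia 5x2 Gy day 3 replicate 4), 8564 CPM (the library labelled large-stage BMDM replicate 5) and 8945 CPM (BMDM 5x2 Gy day 5 replicate 4). In other libraries of those populations outside the 18 high ones these genes reached at most 3518 CPM in microglia and 5110 CPM in BMDM. Small-stage BMDM replicate 4 (9244 CPM) and small-stage microglia replicate 3 (7205 CPM) were as high without being singled out for Hist1h4i. The part of this in the Hist1h4i values was not tested.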

How the results depend on the processing

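No called member reversed its direction in any setting run. The granulocyte excess over monocytes (11 higher) kept its side under every alternative, but lower members rose from 2 to 4 with no filter; leaving out single libraries gave 9 to 11 higher. For microglia against tumour-free, lower members at the small stage (4) became 2 with no filter, 7 with DESeq2 and 0 without doubtful libraries, and 3 to 6 without single libraries; at the large stage 5 became 3, 8 and 1, and 3 to 6. With the reference titled 5x2, higher members were 1 at the small and 2 at the large stage; single left-out libraries gave 1 to 2 higher at the large stage. Members lower in BMDM than in microglia went from 6 to 1 without doubtful libraries and ranged from 3 to 6 without single ones. For tumour against blood monocytes, higher members went from 1 to 2 with no filter and 0 without doubtful libraries, lower ones from 0 to 1 with RLE, 4 with no filter and 3 with DESeq2, and both ranged from 0 to 2 without single libraries (2 lower without blood replicate 4 or large-stage replicate 3, 1 without small-stage replicate 1, 2 higher without small-stage replicate 4). For BMDM against monocytes, 1 higher became 2 with no filter and 3 with DESeq2, and 0 to 1 without single libraries. Granulocytes at the large against the small stage had 2 lower with RLE and 2 with DESeq2, and monocytes at 5x2 Gy day 5 had 1 lower with DESeq2. Without the libraries high for ribosomal protein genes, tumour against blood monocytes had 2 higher and 2 lower, and BMDM against monocytes 0 higher. The cause of these moves was not tested; under no filter, more genes were tested.

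With the replicate block, the BMDM against monocytes count was 0 higher, members lower in BMDM than in microglia were 4, and granulocytes had 8 higher; correlations of same-numbered pairs ran from −0.425 to 0.706. RLE factors moved the median log2 change of all genes from −0.03 to −0.21 in microglia at the small stage, from −0.26 to −0.51 at the large stage and from −0.16 to −0.41 in tumour against blood monocytes.

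Mean summed levels moved by more than the replicate SD in some groups. With library totals and no factors they were 112 CPM (BMDM 5x2 Gy day 10), 157 (blood monocytes), 316, 355, 360, 407, 427 and 303 (granulocytes small, large, 5x2 Gy day 3, 1x10 Gy, 5x2 Gy day 5 and day 10), and 329 and 326 (tumour-free microglia untreated and titled day 5). With RLE factors they were 99.1 (BMDM 5x2 Gy day 10), 140 (blood monocytes), 1419.8, 437, 484 and 359 (granulocytes small, large, 1x10 Gy and 5x2 Gy day 10), 333 (untreated tumour-free microglia) and 74.0 (monocytes 5x2 Gy day 5). Depth limits the rarer members: the median member had 0.166 CPM.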
